A study of Mus musculus with 8 samples.

Results

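The Zfp-named genes of the C2H2 zinc finger class were compared between bleomycin-injured lungs of wild-type and Slc15a3-/- mice. Members were the genes whose transcription factor family in the authors' deposited annotation is zf-C2H2, whose symbol is Zfp followed by a number, and whose counts summed to at least 10 over the libraries. These were 319 of the 18824 genes in the table. Another 9 genes met the name and family but had fewer than 10 counts in all, and 173 zf-C2H2 genes with other names served for comparison. A further 58 genes with a Zfp number, among them Zfp36, Zfp318, Zfp365 and Zfp703, are filed under other families and are not members.

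Lung RNA was sequenced from 4 wild-type libraries (WT_BLM) and 4 Slc15a3-/- libraries (KO_BLM). Every mouse was 8 weeks old, received 2 mg/kg bleomycin by the trachea on day 0 and was killed on day 21, so both groups are bleomycin-injured and no saline-treated lung was analysed here. Bleomycin is a DNA-damaging drug that scars the rodent lung, and Slc15a3 encodes PHT2, a proton-coupled transporter of histidine and peptides in endolysosomal membranes. The knockout is labelled only as Slc15a3-/-, with no allele, promoter or Cre driver named, and the tissue is whole lung. Library totals were 18878835 to 20180831 counts in WT_BLM and 17627999 to 18471445 in KO_BLM. Slc15a3 had 46 counts in the KO_BLM libraries together, 1.19% of the 3874 in WT_BLM, and so followed the labels. The labels do not state that each library is a separate mouse, so p-values measure the spread between these libraries, which may be partly technical.

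C2H2 zinc finger proteins carry repeated fingers, each folded around a zinc ion by a pair of cysteines and a pair of histidines, and neighbouring fingers read neighbouring bases of DNA. Many mouse members also carry a KRAB domain, which recruits the co-repressor TRIM28 (KAP1) and through it the H3K9 methyltransferase SETDB1 and HP1 proteins. KRAB zinc finger genes are known for silencing retrotransposons and imprinted loci, and they lie in clusters that grew by tandem duplication. Others of the class, such as Zfp521, Zfp423 and Zfp516, have no KRAB domain and are known for roles in mesenchymal and adipose cell fate. The deposited annotation does not mark the KRAB domain, so the KEGG term for herpes simplex virus infection, under which KEGG lists many KRAB zinc finger proteins, was used as a stand-in. It was attached to 192 of the 319 members.

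The chromosome 13 cluster is shown first because 13 of its 22 tested members rose and 0 fell, and because 5 of the risen ones that follow one another along the chromosome share a stretch of promoter letters. Among all tested genes 20.7% were higher and 20.8% lower. The RefSeq windows below run 5′ to 3′ on the gene's strand in build GRCm38.p6, from 250 bases before the annotated start to 50 bases after it. The capitals mark TGGGANATGTAGTC, the longest stretch that the 5 windows share when 1 differing position (N) is allowed. It holds letters that the C2H2 protein ZFP143, itself a member, is known to bind. Zfp712 has its window at chr13:67061121-67061420 on the minus strand, Zfp708 at chr13:67081496-67081795 on the minus strand, Zfp759 at chr13:67127978-67128277 on the plus strand, Zfp455 at chr13:67194256-67194555 on the plus strand and Zfp458 at chr13:67268945-67269244 on the minus strand. For Zfp708, which has 2 windows in the table, the one that holds the letters is shown.
Zfp712: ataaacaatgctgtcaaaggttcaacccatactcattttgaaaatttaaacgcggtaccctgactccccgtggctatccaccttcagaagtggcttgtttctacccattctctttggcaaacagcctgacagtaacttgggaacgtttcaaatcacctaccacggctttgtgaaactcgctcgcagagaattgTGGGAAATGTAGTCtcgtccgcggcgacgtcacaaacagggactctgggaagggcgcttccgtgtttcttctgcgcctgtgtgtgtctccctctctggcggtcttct
Zfp708: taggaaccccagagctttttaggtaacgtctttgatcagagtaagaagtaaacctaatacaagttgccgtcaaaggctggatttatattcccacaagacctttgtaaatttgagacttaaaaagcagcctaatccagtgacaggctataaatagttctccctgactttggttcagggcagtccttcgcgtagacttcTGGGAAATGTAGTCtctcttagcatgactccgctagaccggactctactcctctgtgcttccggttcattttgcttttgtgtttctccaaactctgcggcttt
Zfp759: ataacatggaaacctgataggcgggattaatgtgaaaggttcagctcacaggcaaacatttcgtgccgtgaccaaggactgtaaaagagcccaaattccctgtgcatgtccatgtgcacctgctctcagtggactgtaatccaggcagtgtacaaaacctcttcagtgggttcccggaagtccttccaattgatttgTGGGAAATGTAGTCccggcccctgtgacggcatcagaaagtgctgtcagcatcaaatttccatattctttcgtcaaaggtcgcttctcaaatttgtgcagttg
Zfp455: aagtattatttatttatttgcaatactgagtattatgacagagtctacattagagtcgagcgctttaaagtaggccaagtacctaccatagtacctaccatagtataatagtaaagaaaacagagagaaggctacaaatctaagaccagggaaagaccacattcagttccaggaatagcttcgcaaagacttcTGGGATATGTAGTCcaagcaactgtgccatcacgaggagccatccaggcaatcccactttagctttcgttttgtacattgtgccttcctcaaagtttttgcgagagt
Zfp458: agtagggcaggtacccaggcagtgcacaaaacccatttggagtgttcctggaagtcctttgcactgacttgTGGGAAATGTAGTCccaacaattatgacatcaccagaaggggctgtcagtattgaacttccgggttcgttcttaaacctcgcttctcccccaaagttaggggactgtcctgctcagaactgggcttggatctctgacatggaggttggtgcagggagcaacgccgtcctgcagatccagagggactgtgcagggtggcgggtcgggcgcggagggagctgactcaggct
The letters read TGGGAAATGTAGTC in Zfp712, Zfp708, Zfp759 and Zfp458 and TGGGATATGTAGTC in Zfp455. They began 57 bases before the annotated start in Zfp712 and Zfp455, 53 bases before it in Zfp708 and Zfp759, and 179 bases before it in Zfp458.

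All 5 of these genes rose in KO_BLM, and in each the lowest KO_BLM library lay above the highest WT_BLM library. Levels in CPM are counts relative to the library total, scaled with TMM factors, which align the bulk of genes between libraries. Zfp458 stood at 1.81, 1.24, 1.61 and 0.98 CPM in the WT_BLM libraries and at 3.36, 3.18, 3.44 and 4.22 CPM in the KO_BLM libraries, a 2.51-fold higher level (log2 fold change 1.33, SE 0.24, adjusted p = 0.00221, n = 4 per group). Zfp708 had 1.10, 1.84, 2.14 and 1.03 CPM in WT_BLM and 2.97, 3.91, 2.40 and 3.96 CPM in KO_BLM. It was 2.16-fold higher (adjusted p = 0.0141), but 94.9% of its 50-base words occur in other genes and it overlaps Rslcan18, so its reads may be shared. Zfp759 had 2.20, 2.03, 1.77 and 1.36 CPM in WT_BLM and 3.25, 2.96, 3.08 and 5.32 CPM in KO_BLM, a 1.98-fold rise (adjusted p = 0.0139). The last KO_BLM library was the highest for Zfp759, while for Zfp712 it was among the lower ones. Zfp712 had 2.25, 1.64, 1.66 and 1.69 CPM in WT_BLM and 4.57, 3.68, 2.76 and 2.97 CPM in KO_BLM (1.93-fold, adjusted p = 0.00988). Zfp455 had 2.36, 2.78, 2.25 and 1.36 CPM in WT_BLM and 3.86, 4.07, 4.43 and 4.59 CPM in KO_BLM (1.93-fold, adjusted p = 0.00928).

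Over the whole class, members were higher in KO_BLM far more often than lower. Of 311 members with enough reads to test, 108 rose (34.7%) and 20 fell (6.43%), at an adjusted p under 0.05 in edgeR's quasi-likelihood test over all genes. The background was 20.7% higher and 20.8% lower among the 14746 genes tested, so the risen share lay above it and the fallen share below it, while the share called in either direction, 41.2%, was near the 41.5% of all genes. The members' median log2 fold change was 0.30, with quartiles of 0.02 and 0.54, against 0.00 over all genes. Positive values were found for 240 members and negative values for 71. In 118 members every KO_BLM library lay above every WT_BLM library (37.9%, background 20.3%), and in 18 every one lay below (5.79%, background 20.7%), together against 40.9% of all genes in either direction. With library totals alone in place of TMM, 135 members were higher and 16 lower, beside 3789 and 2253 of all genes. Without WT_BLM replicate 1 the counts were 69 higher and 13 lower, and without KO_BLM replicate 2 they were 72 and 12.

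The 8 members with too few reads to test were Zfp966, Zfp981, Zfp92, Zfp114, Zfp985, Zfp457, Zfp819 and Zfp541, with 11 to 24 counts each over the libraries. At the edge of the rule, Zfp966 and Zfp981 had 11 counts and were members, and Zfp345 had 9 and was not. The filter on low counts was passed by 13 members through 1 group alone, and 5 of these were called higher (Zfp663, Zfp773, Zfp872, Zfp879 and Zfp934) and 1 lower (Zfp575). Since these 6 were tested only through the group where they are high, their values are given below without a p. Leaving these 13 out left 298 tested members, of which 103 rose and 19 fell, with a median log2 fold change of 0.29.

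**Figure D1:**
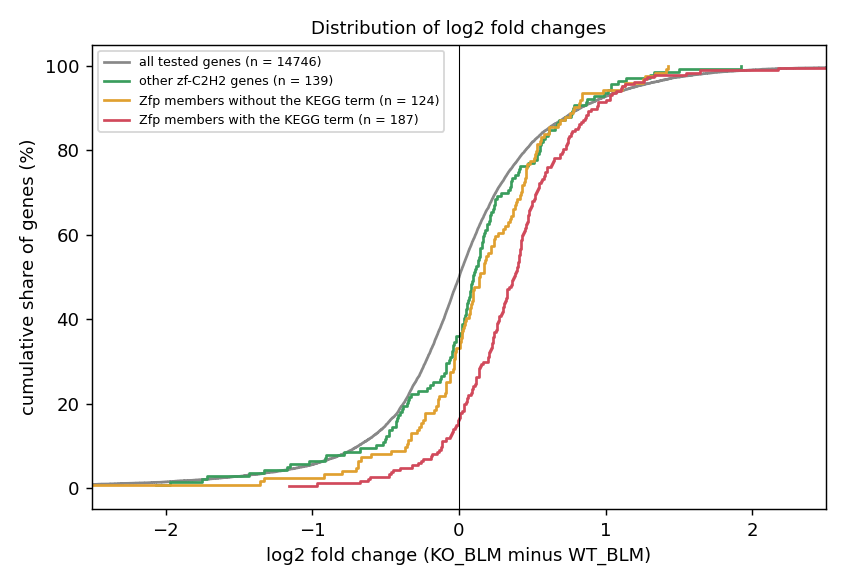
Cumulative share of genes (%) against log2 fold change (KO_BLM minus WT_BLM) for the members with and without the KEGG term, the other zf-C2H2 genes and all tested genes. The members with the KEGG term lie farthest to the right, with a median of 0.38, and all genes centre on 0.00.

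Among the sets of this paragraph, members with the KEGG term rose in the largest share. Of 187 tested, 71 rose (38.0%) and 8 fell (4.28%), with a median log2 fold change of 0.38. Of the 124 without the term, 37 rose (29.8%) and 12 fell (9.68%), with a median of 0.14. Members with the term were also weaker, at a median of 8.22 CPM against 18.6 CPM without it. The other zf-C2H2 genes, tested in the same fit, gave 29 higher and 21 lower of 139 (20.9% and 15.1%, median 0.10). The 18 of them with the KEGG term gave 4 higher and 1 lower (22.2% and 5.56%), with a median of 0.28, near that of the members. The 121 without the term gave 25 higher and 20 lower (20.7% and 16.5%), with a median of 0.09. Genes of other transcription factor families gave 110 higher and 129 lower of 569 (19.3% and 22.7%, median -0.01). Genes that carry the same KEGG term but are not zf-C2H2, many of them immune signalling genes, gave 36 higher and 37 lower of 186. Without WT_BLM replicate 1, 42 members with the term were higher and 4 lower, and 17 other zf-C2H2 genes were higher. Without KO_BLM replicate 2 these counts were 46, 4 and 18. These shares are descriptions, and the differences between the sets were not tested.

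The members are weakly expressed genes. Per length, their median was 1.99 FPKM with quartiles of 0.83 and 4.64, 95 of 319 were under 1 FPKM and 23 were over 10 FPKM. Genes of low level rose more often in general: among the 3940 tested genes between the members' lower and upper quartile of abundance, 26.5% were higher and 15.6% lower, with a median log2 fold change of 0.12. The 155 members in that range were higher in 40.0% and lower in 5.81%, with a median of 0.33. Changes were mostly small. Leaving Zfp663 aside, risen members changed by 1.17-fold to 4.51-fold, the median risen member by 1.56-fold, and 23 of the 108 at least doubled, or 18 of 103 without the members that passed the filter through 1 group. The spread between libraries was a median coefficient of variation of 14.2% in WT_BLM and 10.8% in KO_BLM.

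**Figure D2:**
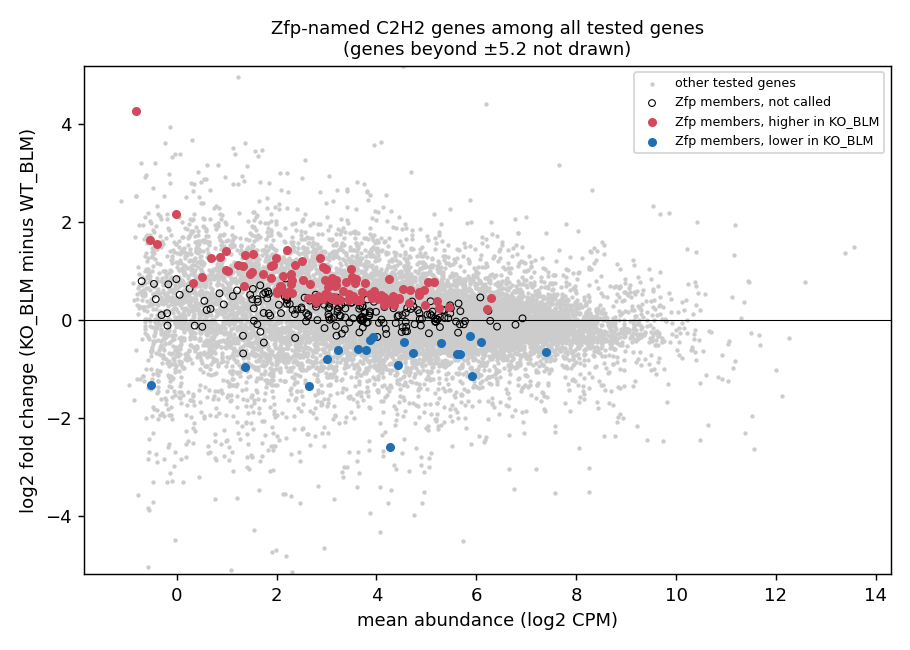
Log2 fold change (KO_BLM minus WT_BLM) against mean abundance (log2 CPM) for all tested genes (grey) and the members (red higher, blue lower, open circles not called). Risen members outnumber fallen ones, 108 to 20, and Zfp469 is the lowest blue point.

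The largest differences were in genes of very low level, and those of Zfp879, Zfp663, Zfp872 and Zfp773, which reached the count minimum in 0 WT_BLM and 4 KO_BLM libraries, are a description only. Zfp879, a zinc finger gene of the chromosome 11 cluster that carries the KEGG term, had 0.330, 0.446, 0.268 and 0.218 CPM in WT_BLM and 1.54, 1.79, 0.938 and 1.56 CPM in KO_BLM. Its fitted level was 4.51-fold higher (log2 fold change 2.17, SE 0.34), and the groups did not overlap. Its chromosome 11 neighbour Zfp354b had 0.880, 0.744, 1.29 and 1.09 CPM in WT_BLM and 2.75, 2.01, 2.35 and 2.66 CPM in KO_BLM, 2.44-fold higher (adjusted p = 0.00311). Zfp663 was almost absent from the wild-type libraries, with 0, 2, 0 and 1 counts, and had 17, 15, 20 and 14 counts in KO_BLM. The ratio of its summed counts, 66 to 3, was 22.3 after scaling for depth (exact 95% interval 7.30 to 111, counting error only). Zfp872 and Zfp773, also under 1 CPM on average in both groups, had fitted levels 3.12-fold and 2.92-fold higher, with no overlap between groups.

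Among members at 1 to 12 CPM in KO_BLM, Zfp882 had 1.65, 3.27, 3.48 and 1.36 CPM in WT_BLM and 6.61, 7.53, 5.63 and 6.62 CPM in KO_BLM. It was 2.69-fold higher (log2 fold change 1.43, SE 0.29, adjusted p = 0.00445), and the first and last WT_BLM libraries were the lowest. Zfp983, in a chromosome 17 cluster, had 4.29, 4.56, 5.04 and 3.0 CPM in WT_BLM and 11.3, 10.2, 7.77 and 11.6 CPM in KO_BLM, 2.41-fold higher (SE 0.20 on the log2 scale, adjusted p = 0.00111). Zfp612 had 3.74, 3.77, 2.68 and 3.43 CPM in WT_BLM and 7.22, 8.65, 6.67 and 8.71 CPM in KO_BLM, 2.29-fold higher (adjusted p = 0.000793). The groups were apart in all of these genes, and the third KO_BLM library was the lowest of its group in each. Zfp934, which reached the minimum in 3 WT_BLM and 4 KO_BLM libraries, had a fitted level 2.66-fold higher. The other large rises were Zfp72 (2.53-fold), Zfp82 (2.40-fold), Zfp493 (2.39-fold), Zfp931 and Zfp94 (2.19-fold each), with adjusted p from 0.00718 to 0.0105 and no overlap between groups.

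Zfp831 had wild-type libraries that fell into a low and a high pair, with 1.32, 3.37, 3.16 and 1.14 CPM in WT_BLM and 5.01, 4.46, 5.68 and 4.38 CPM in KO_BLM. It was 2.16-fold higher (adjusted p = 0.0256), and missed the threshold when WT_BLM replicate 1 (adjusted p = 0.0653) or KO_BLM replicate 3 (0.0599) was left out. Zfp467, which is known to favour fat over bone formation in marrow stromal cells, had 20.6, 26.6, 33.5 and 17.2 CPM in WT_BLM and 37.1, 40.0, 34.5 and 38.2 CPM in KO_BLM. It rose 1.53-fold (adjusted p = 0.0216), but not at the threshold without WT_BLM replicate 1 (0.0630) or KO_BLM replicate 2 (0.0538). In both genes the first and last WT_BLM libraries were the low ones. Zfp970 had 31.0, 21.9, 26.4 and 24.5 CPM in WT_BLM and 54.4, 52.3, 29.9 and 41.7 CPM in KO_BLM, so the third KO_BLM library fell within the wild-type range (1.72-fold, adjusted p = 0.00821). Of its 50-base words, 49.5% occur in other genes.

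**Figure D3:**
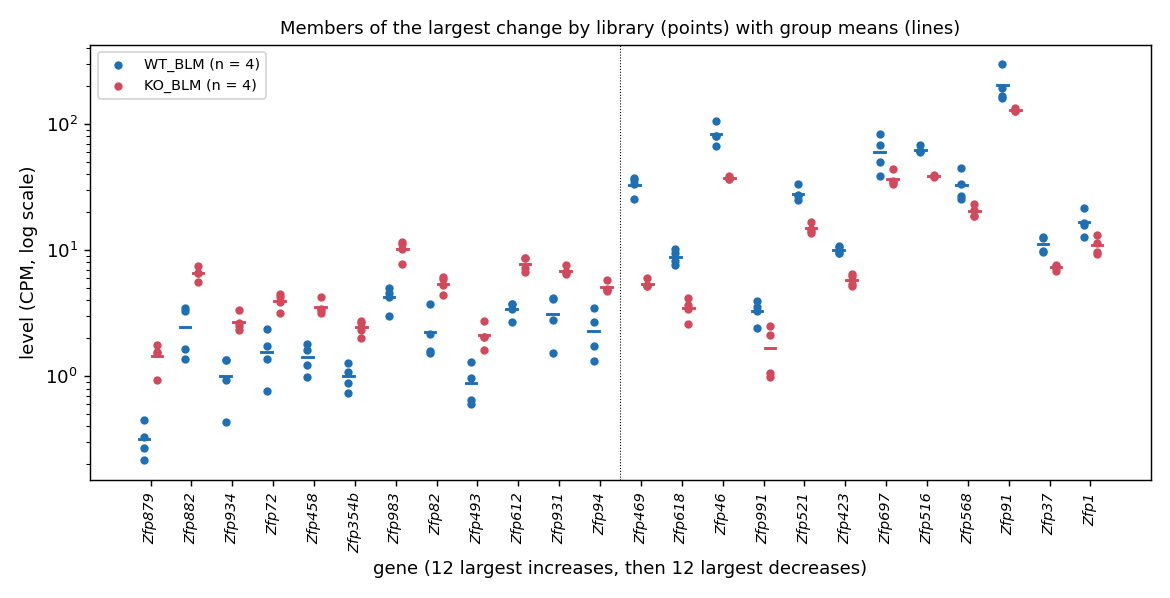
Level (CPM, log scale) of the 12 largest increases and 12 largest decreases among called members of at least 1 CPM, with 4 WT_BLM and 4 KO_BLM libraries as points and group means as lines. The largest increases lie mostly below 12 CPM, while the decreases reach 298 CPM in Zfp91.

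The 20 members that fell were fewer but more abundant, with a median of 20.4 CPM against 8.35 CPM for the risen ones. Zfp469, the mouse counterpart of the gene mutated in brittle cornea syndrome, a connective tissue disorder, changed most. It had 36.1, 25.4, 33.3 and 37.4 CPM in WT_BLM and 5.29, 5.25, 6.05 and 5.16 CPM in KO_BLM. The fall was from 33.1 ± 5.39 to 5.44 ± 0.411 CPM (SD, n = 4), 6.07-fold (log2 fold change -2.60, SE 0.14, adjusted p = 2.94e-06), and the KO_BLM libraries lay close together far below WT_BLM. Zfp618 fell from 8.89 ± 1.22 to 3.47 ± 0.655 CPM (SD, n = 4), 2.56-fold (adjusted p = 0.000541). Zfp46 had 80.6, 80.2, 66.6 and 106 CPM in WT_BLM and 37.2, 36.7, 39.0 and 36.7 CPM in KO_BLM, 2.23-fold lower (adjusted p = 0.000171). Unlike Zfp469, Zfp46 carries the KEGG term, as 8 of the 20 fallen members do.

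Zfp521, Zfp423 and Zfp516 fell, while Zfp467, described above, rose. Zfp521, a regulator of progenitor cell fate that restrains fat cell formation, had 25.1, 26.8, 33.3 and 27.6 CPM in WT_BLM and 13.7, 14.7, 14.3 and 16.8 CPM in KO_BLM, 1.89-fold lower (adjusted p = 0.000337). Zfp423, a factor that commits cells to the fat lineage, fell from 10.1 ± 0.695 to 5.83 ± 0.642 CPM (SD, n = 4), 1.73-fold (adjusted p = 0.00162). Zfp516, an activator of the brown fat programme, fell from 62.8 ± 3.40 to 38.9 ± 0.767 CPM (SD, n = 4), 1.61-fold (adjusted p = 0.000114). In each of the 3 that fell every KO_BLM library was below every WT_BLM library. Most fibroblast marker genes fell as well: 9 of 11 were lower and 1 higher, against 20.7% higher and 20.8% lower among all tested genes. Their summed level was 8495 to 9613 CPM in WT_BLM and 3194 to 3407 CPM in KO_BLM. None of the 11 was at 0 in any library. The sum mostly reflects Col1a1, Col1a2 and Col3a1, with WT_BLM means of 2427, 2618 and 2544 CPM. Their KO_BLM means were 441, 594 and 1135 CPM. Of the others, Tcf21 rose 3.22-fold (adjusted p = 0.000175) and Pdgfra was not called (adjusted p = 0.206). The part of the fibroblast genes in the fall of these members was not tested. In whole lung, fewer cells of a type and less RNA per cell cannot be told apart.

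Zfp568, a KRAB protein known to silence a placental Igf2 transcript, had 26.9, 25.6, 33.9 and 44.7 CPM in WT_BLM and 18.8, 20.9, 18.8 and 23.4 CPM in KO_BLM, 1.6-fold lower (adjusted p = 0.0119). Zfp91, a protein with ubiquitin ligase activity in non-canonical NF-kB signalling, is the most abundant member per length, at 35.4 FPKM in WT_BLM and 23.9 FPKM in KO_BLM. It had 194, 163, 169 and 298 CPM in WT_BLM and 129, 128, 127 and 134 CPM in KO_BLM, 1.58-fold lower (adjusted p = 0.0135), with the last WT_BLM library far above the others. Zfp91 lies on chromosome 19, 1.91 Mb from Slc15a3, and overlaps Lpxn. The remaining large falls were Zfp991 (1.96-fold), Zfp697 (1.63-fold), Zfp37 (1.53-fold) and Zfp1 (1.52-fold), with adjusted p = 0.0368, 0.0236, 0.00638 and 0.0192. The groups overlapped in Zfp991, Zfp697 and Zfp1. Of the 50-base words of Zfp991, 82.2% occur in other genes. Zfp991 missed the threshold with library totals alone (adjusted p = 0.0602) and without WT_BLM replicates 1, 3 or 4 or KO_BLM replicates 1 or 2 (0.0658 to 0.103), and Zfp1 without WT_BLM replicate 1 (0.0559) or KO_BLM replicate 2 (0.0573). Zfp697 missed it in 8 of 18 alternatives, with an adjusted p of 0.00424 to 0.0649 over all of them. Zfp575, at under 1 CPM on average in both groups, reached the minimum in 4 WT_BLM libraries and 1 KO_BLM library. Its fitted level was 2.51-fold lower (log2 fold change -1.33, and -2.02 by limma-voom).

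**Figure D4:**
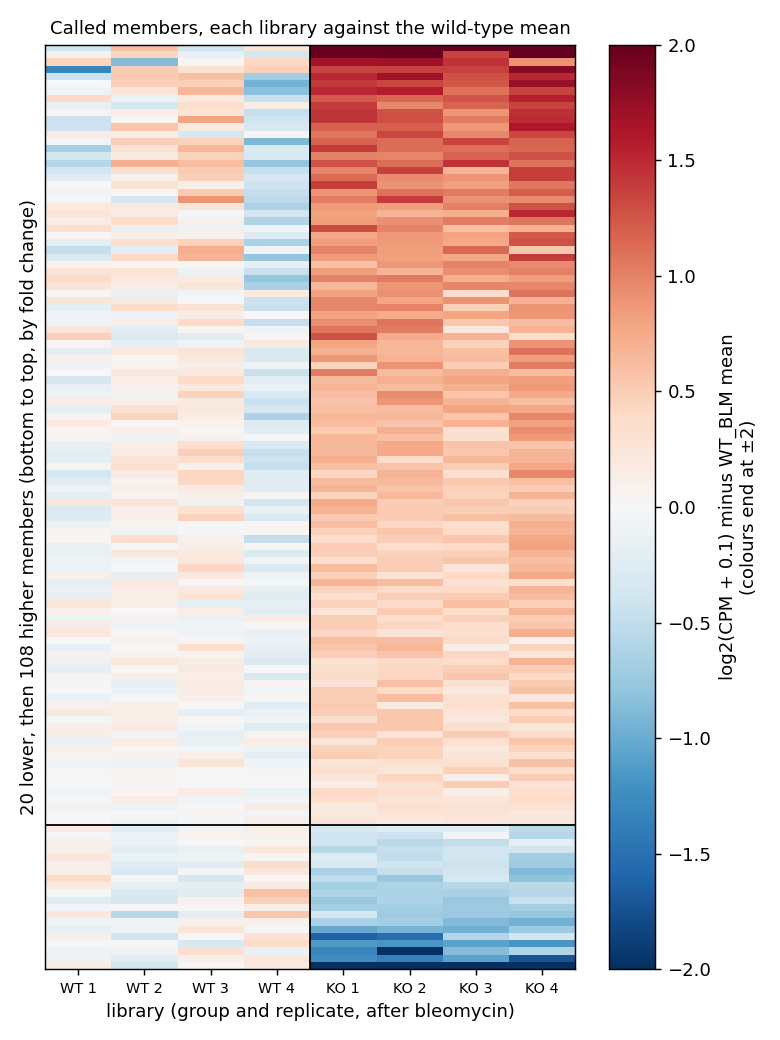
Each of the 108 risen and 20 fallen members (rows) in each library (columns), as log2(CPM + 0.1) minus the WT_BLM mean, with colours ending at 2 either way. The members were chosen by this contrast, so the split between groups is given by the choice, and the picture shows that WT 4 is pale blue in many risen members and KO 3 paler than the other KO_BLM libraries.

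Several of the best known members were not called. The genes that protect imprinted methylation, Zfp57 and Zfp445, had log2 fold changes of 0.38 (adjusted p = 0.0517) and 0.19 (adjusted p = 0.218). Zfp57 had 30.8, 33.3, 25.9 and 27.3 CPM in WT_BLM and 44.3, 36.5, 29.0 and 43.1 CPM in KO_BLM, so its groups overlapped through the third KO_BLM library. It passed the threshold in 10 of 18 alternatives, DESeq2 among them (adjusted p = 0.0419). Zfp809, which silences retroviruses in embryonic cells, stood at 22.1 ± 1.12 and 23.6 ± 3.07 CPM (SD, n = 4, adjusted p = 0.475). Zfp148 had a log2 fold change of 0.18 (adjusted p = 0.0600, past the threshold in 7 alternatives), Zfp281, a regulator of pluripotent cells, -0.27 (0.0985), and Zfp410, an activator of Chd4, -0.14 (0.194). Per length, the most abundant members after Zfp91 were Zfp664 at 26.9 FPKM and Zfp740 at 25.1 FPKM, and neither was called (adjusted p = 0.413 and 0.834). Zfp143, whose known letters lie within the stretch shared by the promoters above, had 22.7, 20.04, 18.8 and 22.4 CPM in WT_BLM and 23.3, 22.2, 21.0 and 23.1 CPM in KO_BLM. Its groups overlapped (log2 fold change 0.09, SE 0.09, adjusted p = 0.449).

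Most of the genes whose products KRAB proteins recruit were not called, and the calls went in both directions. The background for each list of this paragraph was 20.7% higher and 20.8% lower, or 41.5% called, among all tested genes. Of the 20 genes in the KRAB co-repressor list, 2 were higher and 3 lower, with a median log2 fold change of -0.04, and their summed level was 1282 to 1324 CPM in WT_BLM and 1274 to 1327 CPM in KO_BLM. Trim28 itself stood at 156 ± 16.04 CPM in WT_BLM and 139 ± 14.2 CPM in KO_BLM (SD, n = 4 libraries, adjusted p = 0.207, a log2 fold change of -0.17) and Setdb1 at 50.5 ± 6.32 and 56.2 ± 5.01 CPM (0.15, adjusted p = 0.275). The 2 that rose were Atf7ip, a partner of SETDB1 (log2 fold change 0.42, adjusted p = 0.00944), and Cbx5, which encodes HP1 alpha (0.32, adjusted p = 0.0342), whose call was lost in 6 alternatives (adjusted p 0.0115 to 0.0999 over all). The 3 that fell were Sumo3 (-0.31, adjusted p = 0.0138), the chromatin assembly gene Chaf1a (-0.95, adjusted p = 0.000717) and Uhrf1 (-1.002, adjusted p = 0.0161), which maintains DNA methylation at replication. The count of higher genes in this list was 6 of 20 with library totals alone or limma-voom, 5 on the FPKM scale, and 1 without WT_BLM replicate 1 or KO_BLM replicates 1, 2 or 4, while the lower ones stayed at 2 to 4. Of the 13 tested H3K9 methylation and heterochromatin genes, 1 rose and 3 fell, and of the 14 NuRD genes 1 rose and 5 fell.

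Members in gene clusters rose in a larger share than members that lie alone. With members joined where the next one lay within 1 Mb, 18 clusters held 5 or more members, 179 in all. Of the 174 tested there, 70 were higher (40.2%) and 7 lower (4.02%), with a median log2 fold change of 0.36. Of the 69 in clusters of 2 to 4, 23 were higher (33.3%) and 4 lower (5.80%), with a median of 0.34. Of the 68 tested members with no other member within 1 Mb, 15 were higher (22.1%) and 9 lower (13.2%), with a median of 0.09. The background over all tested genes was 20.7% higher and 20.8% lower, so the risen share of the solitary members was near it. Solitary members were also more abundant, at a median of 19.3 CPM against 9.04 CPM in the clusters of 5 or more, and the differences between these sets were not tested.

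The counts called varied between chromosomes, beside 20.7% higher and 20.8% lower among all tested genes. Many chromosomes hold few members, and the differences between chromosomes or clusters were not tested. On chromosome 13, 19 of 33 tested members rose and 0 fell (median log2 fold change 0.50), on chromosome 11, 9 of 15 and 0 (0.53), and on chromosome 17, 17 of 42 and 0 (0.39). Chromosome 7 holds the most members, 85, and 27 of 82 tested rose and 4 fell (0.33). On chromosome 8, 3 rose and 4 fell of 21, and on chromosome 4, 4 rose and 5 fell of 14. Within chromosome 7 the clusters were unlike each other: 6 of 7 tested members rose at chr7:41633531-43618279, while 0 of 10 rose and 1 fell at chr7:127233061-127885996 and 0 of 6 rose and 1 fell at chr7:4915181-5053723.

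The chromosome 13 cluster at chr13:67038594-67827000 spans 0.788 Mb with 23 members, of which 22 were tested, 13 rose and 0 fell (median log2 fold change 0.52). For each cluster of this paragraph the background was 20.7% higher and 20.8% lower among all tested genes. All 22 tested members of the chromosome 13 cluster had positive values, from 0.03 in Zfp87 to 1.33 in Zfp458. The first 5 of this cluster in order along the chromosome, whose promoters are printed above, rose, as did Zfp595, Zfp953, Zfp874a, Zfp874b, Zfp729a, Zfp738, Zfp493 and Zfp273. On chromosome 17, 8 of 23 members rose at chr17:21008941-23599755 and 8 of 12 at chr17:32765496-33394637, with 0 lower in either. Zfp760 of the former had 7.04, 8.78, 7.77 and 5.28 CPM in WT_BLM and 18.7, 13.3, 12.7 and 14.9 CPM in KO_BLM (2.06-fold, adjusted p = 0.00199). In the latter, Zfp101 rose 1.82-fold (adjusted p = 0.00120) and Zfp563 rose 1.75-fold (adjusted p = 0.000793), both with no overlap. On chromosome 7 at chr7:29768552-30169775, Zfp82, Zfp14 (2.05-fold, adjusted p = 0.00346) and Zfp420 (2.11-fold, adjusted p = 0.00304) rose beside Zfp568, which fell. In the chromosome 11 cluster at chr11:50811085-51072799, which holds Zfp879 and Zfp354b, 3 of 6 members rose (median 0.73).

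Neighbouring zinc finger genes resemble each other in sequence, which bears on read assignment. Of members matched to GENCODE transcripts (318), the median shared 0.544% of its 50-base words with any other gene. Of the 248 tested members that shared under 10%, 84 were higher and 18 lower (median log2 fold change 0.26), and of the 62 that shared 10% or more, 24 were higher and 2 lower (0.42). Another RefSeq gene overlaps 106 members.

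The letters TGGGANATGTAGTC, searched on both strands, were more frequent in the members' promoters than in all promoters, though most member windows lacked them. They stood in 0.286% of all 32851 windows and in 7.72% of the 324 windows that matched a member by symbol (25 of 266 matched genes). All windows cover 27025 genes, tested here or not. Of the 11665 tested genes with a window, 76 held the letters. The windows of risen members held them in 14.8% (17 of 115), those of fallen members in 0 of 16, and those of members not called or not tested in 4.15%. Members with the KEGG term held them in 10.4% of windows and members without it in 3.25%. Of the 24 tested members with the letters, 17 rose (70.8%) and 0 fell, with a median log2 fold change of 0.73. Of the 235 with a window but not the letters, 80 rose (34.0%) and 12 fell (0.27). Without the 5 genes from which the letters were read, 12 of 19 tested members with them rose (63.2%). The 12 include Zfp879, which passed the filter on low counts through KO_BLM alone. The background for genes with a window was 21.0% higher and 20.7% lower. Tested genes that hold the letters but are not members, with other zf-C2H2 genes not excluded, had 21.2% of 52 higher and 9.62% lower. The letters were chosen after the promoters and the changes had been seen, so these counts are a description, as is each match, and no match says only that these letters are not in the window.

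The letters also followed position. The 25 members with them lay on chromosomes 13 (15, of which 14 were tested), 7 (7), 11 (2) and 2 (1) and none on chromosome 17, where 15 of 38 tested members with a window rose all the same. On chromosome 13, 10 of 14 tested members with the letters and 7 of 13 without them rose, and on chromosome 7, 5 of 7 and 21 of 68. The 10 include the 5 risen genes from which the letters were read, so the chromosome 13 counts are not independent of that choice. In the clusters of 5 or more members, 16 of 22 with the letters rose and 0 fell, and 48 of 127 without them rose and 4 fell. The 16 include the same 5 genes. The window of Zfp663, the member with the largest ratio, at chr2:165368687-165368986 did not hold the letters. Among other promoter letters, searched on both strands, CCGGAAGT, bound by ETS factors, stood in 11.4% of member windows and 3.89% of all, and in 8.70% of the windows of risen members. GCATGCGC, part of the site of NRF1, stood in 4.94% of member windows and 2.71% of all, CCAAT in 46.0% and 37.4%, and TATAAA in 7.10% and 13.6%. These words can overlap one another, and each was counted on its own. The median observed over expected CpG ratio was 0.626 in member windows and 0.384 in all. In these comparisons all windows are those of 27025 genes, most of which were not tested here. The shares of the other letters among tested genes alone were not taken.

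**Figure D5:**
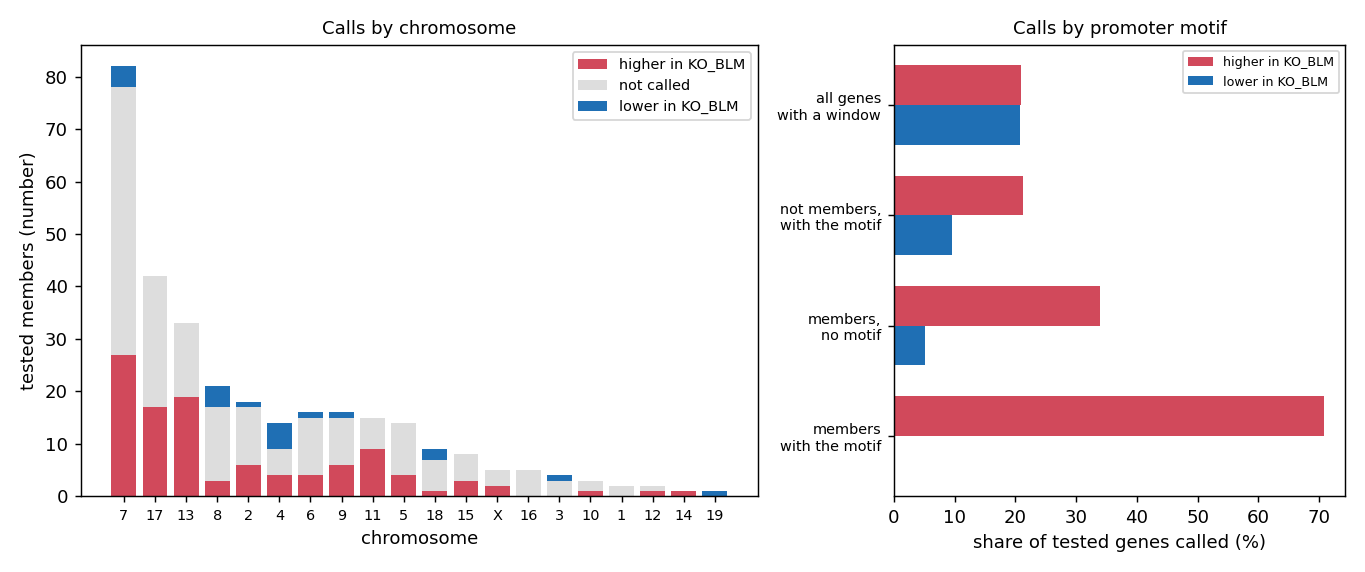
Left, tested members per chromosome (number) by call, and right, share of tested genes called (%) by whether the promoter window holds the letters shared by the chromosome 13 promoters. Chromosomes 17, 13 and 11 are among those with rises and no falls. Members with the letters are higher in 70.8% against 34.0% without them. The 70.8% includes the 5 risen genes from which the letters were read, and the share is 63.2% when these are left out.

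Libraries within a group were not alike in these genes. Of the 108 risen members, 64 had their lowest wild-type level in WT_BLM replicate 4 and 52 their highest in WT_BLM replicate 3, and in KO_BLM 48 had their lowest level in replicate 3 and 54 their highest in replicate 4. The summed level of all members was 4835 to 5110 CPM in WT_BLM and 5066 to 5495 CPM in KO_BLM, which overlap, with KO_BLM replicate 3 the lowest of its group. The summed level of the members with the KEGG term was 1843 to 1898 CPM in WT_BLM and 2052 to 2218 CPM in KO_BLM, with no overlap.

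Markers of several lung cell types moved between the same groups, and their part in the members' changes was not tested. The background for each list of this paragraph was 20.7% higher and 20.8% lower among all tested genes. The lists are short, so a few calls in a list can lie near that share. Of the T and NK cell genes 15 of 16 were higher and 0 lower, with summed levels of 43.0 to 95.6 CPM in WT_BLM and 174 to 324 CPM in KO_BLM. Among the 15, Eomes and Ncr1 reached the count minimum in 2 WT_BLM libraries and Tbx21 in 3, against 4 KO_BLM libraries each. Of the B cell genes 9 of 9 were higher, with 51.0 to 142 and 237 to 385 CPM. WT_BLM replicate 4, where many risen members were lowest, was also lowest in both lists, while KO_BLM replicate 3, which was highest in both, was the library of lowest member levels in its group. Ciliated cell genes were higher in 9 of 9 (163 to 247 and 520 to 671 CPM), alveolar type 2 genes in 7 of 8 (8555 to 12444 and 22294 to 34709 CPM), club cell genes in 4 of 5 and endothelial genes in 5 of 8 with 1 lower. Macrophage and monocyte genes were lower in 8 of 11 and higher in 2, smooth muscle genes lower in 4 of 6, neutrophil genes lower in 2 of 7, alveolar type 1 genes higher in 2 of 6 and red cell genes higher in 5 of 5. No marker of these lists was at 0 in any library, and the alveolar markers fit the lung label. Of the 11 genes of the RNA quality and nuclear RNA list, 6 are in the deposited table (Actb, Eef1a1, Gapdh, Rpl13a, Rpl4 and Rps3). All 6 were lower, from 10636 to 11792 CPM summed in WT_BLM to 8403 to 9458 CPM in KO_BLM. The levels of these mRNAs do not measure RNA integrity, which was not tested.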

How the data were processed

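RNA of whole lung was sequenced from stranded mRNA libraries, per the labels' protocols. Per the submitters' processing notes, Trimmomatic, HTSeq, Cufflinks and DESeq were used with build mm10; their roles and versions, and the strand setting, are not stated in the sources used here. The deposited table holds the authors' read count per gene and FPKM, and each FPKM equalled count over total and 1 length per gene in 100% of genes (relative tolerance 1e-06). Members and lists were chosen with earlier results of these data known.

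Counts were tested with edgeR 4.0.16 (R 4.3.3): TMM, filterByExpr (minimum count 10, total 15), robust glmQLFit and glmQLFTest, KO_BLM against WT_BLM, with Benjamini-Hochberg adjustment over all tested genes at 0.05. The biological coefficient of variation was 16.6%. The SE is the absolute log2 fold change over the root of F. The code was tested on simulated data. Alternatives were library totals alone or RLE factors for scaling, no filter or a stricter one, DESeq2 1.42.0, limma 3.58.1 (voom with quality weights, and log2(FPKM + 1) or log2(FPKM + 0.1)), a replicate block and each library left out. Libraries of a group differed by more than counting error (chi-square per degree of freedom 7.24 to 55.7 over 12 pairs).

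Genes named were the 12 largest increases and 12 largest decreases among called members whose mean reached 1 CPM in either group, 13 well-known members from a preset list, the 5 called KRAB co-repressor genes, the 3 most abundant members by FPKM and Slc15a3. Named after their values were seen were Zfp663, Zfp872, Zfp773, Zfp575, Zfp712, Zfp708, Zfp759, Zfp455, Zfp14, Zfp420, Zfp760, Zfp101, Zfp563, Zfp831, Zfp970, Trim28 and Setdb1, and the other genes of the chromosome 13 cluster. Positions and promoter windows are from RefSeq GRCm38.p6, matched by NCBI Gene ID or symbol, and shared 50-base words from GENCODE M21 transcripts. A planned split of the members by KRAB domain in their proteins was not made, and the KEGG term stood in for it. The fibroblast markers given singly were also picked after their values were seen. The labels name no batch.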

Additional observations from a re-analysis of the deposited data

Results flagged for a closer look

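In each of the 57 named genes, each group of 4 libraries was examined for a library that stood apart, its gap to the nearest other library exceeding Dixon's critical share of the group's range. Of 114 groups, 11 had one, and chance gives about 1 in 20. Among KO_BLM libraries, replicate 1 stood high for Zfp94 (5.84 CPM, the others 4.74 to 4.90) and Zfp697 (44.3 CPM, the others 33.6 to 35.3), and replicate 3 for Zfp469 (6.05 CPM, the others 5.16 to 5.29). KO_BLM replicate 4 stood high for Zfp445 (92.5 CPM, the others 75.6 to 77.1), Zfp773 (1.25 CPM, the others 0.881 to 0.893) and Zfp759 (5.32 CPM, the others 2.96 to 3.25), and low for Zfp410 (31.8 CPM, the others 38.0 to 38.3). Among WT_BLM libraries, replicate 4 stood high for Zfp664 (131 CPM, the others 107 to 110) and low for Zfp101 (5.39 CPM, the others 6.20 to 6.32). WT_BLM replicate 3 stood high for Zfp575 (1.07 CPM, the others 0.762 to 0.794) and WT_BLM replicate 1 for Zfp712 (2.25 CPM, the others 1.64 to 1.69). KO_BLM replicate 4 held 4 of the 11.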

How the results depend on the processing

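Over 18 alternatives no member call turned to the other direction in the alternatives that tested it. Of the 128 calls, 112 were tested in all 18, and 62 of these (51 higher, 11 lower) kept their call in all. Another 16 were left out by the filter of at least 1 alternative. Leaving out 1 library at a time gave 82 to 125 called members, 69 to 106 higher and 12 to 19 lower, against 128, 108 and 20. The members with the KEGG term gave 42 to 70 higher and 4 to 8 lower against 71 and 8, and those without it 26 to 36 higher and 8 to 11 lower against 37 and 12. The other zf-C2H2 genes gave 33 to 54 called and 17 to 31 higher against 50 and 29. The lowest counts came without WT_BLM replicate 1 or KO_BLM replicate 2, and the cause was not tested. Zfp740, not called, had a log2 fold change of 0.03 that ran from -0.035 to 0.10 with 1 library left out and was below 0 without WT_BLM replicate 3, KO_BLM replicate 1 or KO_BLM replicate 2. On log2(FPKM + 1) the folds of weak genes are smaller by construction: Zfp879 had 0.27 against 2.17. With library totals alone, 89.4% of the called members were higher against 84.4%, and 62.7% of all called genes against 50.0%. With the replicate number as a block, 98 members were called, 81 higher and 17 lower, and 96 of the 128 calls were kept. Same-numbered libraries correlated at 0.119, -0.0184, -0.00088 and -0.0788 in their deviations from the group means. These values show no pairing common to all numbers. Because the deviations sum to 0 within a group, they cannot decide whether libraries of the same number shared a batch. With 4 libraries a group, members of few counts limit what can be called, and 8 could not be tested.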
